A study of Homo sapiens with 7 samples.

Results

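The genes described here encode proteins of epithelial cell junctions: the cadherin CDH1, the adhesion molecule EPCAM, the catenins CTNNB1, CTNND1 and CTNNA1, and the claudins CLDN6 and CLDN7. They were chosen by symbol, matched to the Ensembl stem of the gene identifier, a rule that uses no measured value, although earlier results of these data were known when the genes were chosen. All 7 genes had rows, holding 458 of the 386982 isoforms listed and 7 of the 14294 genes. All 7 also passed the filter of a mean of at least 5 TPM over the libraries, as did 7877 genes in total.

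HUES66 cells, a human embryonic stem cell line, were the source of every library, and the libraries were read by PacBio long-read sequencing of polyadenylated RNA, in which 1 read stands for 1 cDNA molecule. There was 1 control, whose genotype is given as WT and whose description reads piggyBac, and 6 knockdown libraries in which Cas13d, an RNA-guided nuclease that cleaves RNA, was directed at an isoform of the splicing regulator RBFOX2. The 6 are called the G libraries: G3 (RBFOX2 id 178147), G5 (178149), G11 (178136), G12 (178135), G13 (178145) and G14 (178146). Every culture received doxycycline at 1 µg/ml, and the labelled time is 24 h. The labels do not say which isoform an id denotes, and whether the control carries Cas13d or a guide was not given in the sources used here.

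The control was the shallowest library, with 16801847 reads, and G12 the deepest, with 26678541, by totals inferred from counts and TPM. Each group had 1 library, so no difference has a replicate check and no p-value is given. Intervals are at 95% and cover counting error only, and all 6 comparisons share the control. Reads of the targeted gene, RBFOX2, stood at 39.2% of the control in G3, 52.2% (G13), 77.3% (G11), 82.5% (G12), 90.3% (G5) and 98.6% (G14). Of 10 pluripotency markers 9 had rows and passed the filter, with a summed level of 1692 to 2143 TPM, and SOX2 had no row. Markers of mesendoderm summed to at most 0.298 TPM and those of trophectoderm to at most 2.52 TPM, and of 5 neurectoderm markers OTX2, which pluripotent cells also express, was the one with a row. Of 6 fibroblast markers COL1A1 and COL1A2 had rows, and their sum was 27.7 TPM in the control, highest in G3 at 38.5 and lowest in G13 at 4.21. The pluripotency markers went both ways: POU5F1, whose near-identical copies make its level uncertain, was 915 TPM in the control and 377 to 588 in the G libraries, whereas DPPA4, SALL4 and TDGF1 were higher than the control in all 6. NANOG was 10.0 TPM in the control and 3.49 to 5.54 in the G libraries, at least 2-fold lower in 4, and COL1A1, at 16.4 in the control and 30.3 in G3, was also so in 4. L1TD1 was at least 2-fold higher in 5, from 18.2 TPM to at most 41.0. Of all genes past the filter, 7.62% were at least 2-fold lower in 4 or more G libraries and 0.495% at least 2-fold higher.

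Epithelial cells are held together by adherens junctions, in which cadherins bridge neighbouring cells and catenins tie their cytoplasmic tails to actin. Tight junctions lie nearer the apical surface, where claudins form the strands that seal the space between cells. Human pluripotent stem cells grow as epithelial-like sheets, in which CDH1 and EPCAM are surface markers of the undifferentiated state. Several junction genes are spliced differently in epithelial and mesenchymal cells, and CTNND1 is a textbook case.

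The stretches below carry the CTNND1 forms that the isoform values turn on. CTNND1, on the plus strand of chromosome 11 at 57753243 to 57819546 (GRCh38, GENCODE 29), starts translation at alternative codons. The first sequence is the coding stretch of exon 3 of its transcript ENST00000358694, chr11:57791479-57791673, plus strand, with the first and the second start codon in capitals. The second is exon 4 of the same transcript, chr11:57794010-57794081, plus strand. The third start codon lies downstream at 57795613, and the form that begins there lacks the first 101 residues of the longest form.
CTNND1 exon 3 coding stretch: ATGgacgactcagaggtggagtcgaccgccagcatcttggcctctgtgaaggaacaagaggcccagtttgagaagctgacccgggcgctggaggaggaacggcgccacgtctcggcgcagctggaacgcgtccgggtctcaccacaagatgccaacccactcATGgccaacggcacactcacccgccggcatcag
CTNND1 exon 4: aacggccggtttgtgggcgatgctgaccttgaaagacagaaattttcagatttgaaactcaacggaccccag

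CLDN6 and CLDN7 were both lower than the control in G5, G11, G12, G13 and G14, so their promoters are shown, from 250 bases before to 50 after the start site (RefSeq, GRCh38.p14). CLDN6 is read from the minus strand of chromosome 16, and its window is chr16:3018134-3018433. CLDN7 is read from the minus strand of chromosome 17, and 2 windows are shown for it. The 5′ ends that the table lists for its 2 main isoforms, 7263213 and 7263223, lie in the distal window, chr17:7263164-7263463. The proximal window, chr17:7262429-7262728, is that of the start site of ENST00000360325 in GENCODE 29. Capitals mark CACCTG on either strand, an E-box sequence that repressors of the Snail family are known to bind, and the cAMP element TGACGTCA.
CLDN6 promoter: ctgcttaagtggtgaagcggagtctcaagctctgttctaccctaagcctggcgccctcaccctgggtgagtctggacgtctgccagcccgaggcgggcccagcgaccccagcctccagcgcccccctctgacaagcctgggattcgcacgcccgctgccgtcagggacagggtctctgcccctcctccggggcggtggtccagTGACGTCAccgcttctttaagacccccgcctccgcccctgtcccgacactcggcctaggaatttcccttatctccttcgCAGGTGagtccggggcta
CLDN7 distal promoter: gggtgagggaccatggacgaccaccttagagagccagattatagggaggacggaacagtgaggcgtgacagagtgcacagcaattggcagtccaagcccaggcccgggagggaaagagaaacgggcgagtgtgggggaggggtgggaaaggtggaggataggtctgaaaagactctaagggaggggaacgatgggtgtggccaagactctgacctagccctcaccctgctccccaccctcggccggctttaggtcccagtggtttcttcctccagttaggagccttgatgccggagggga
CLDN7 proximal promoter: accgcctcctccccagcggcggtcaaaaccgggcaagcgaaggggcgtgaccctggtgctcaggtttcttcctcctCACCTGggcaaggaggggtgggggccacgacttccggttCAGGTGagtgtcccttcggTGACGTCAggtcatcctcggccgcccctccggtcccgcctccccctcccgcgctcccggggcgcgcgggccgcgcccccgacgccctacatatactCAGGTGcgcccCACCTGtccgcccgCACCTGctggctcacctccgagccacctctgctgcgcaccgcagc
The distal CLDN7 window, where the listed 5′ ends lie, held neither motif. The proximal CLDN7 window held 5 E-boxes of this spelling and 1 cAMP element, and the CLDN6 window held 1 of each. The listed 5′ end of the leading CLDN6 isoform, 3018381, lies inside the CLDN6 window, upstream of the RefSeq start site. Both CLDN6 motifs lie downstream of that listed end, within the span of the isoform and not before its start. Of 35116 RefSeq promoters of the same length, 20.6% held at least 1 such E-box and 0.168% held at least 4. The cAMP element was in 1.85% of them. These are matches of letters in a window and describe no binding.

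The question put to the levels was whether the junction genes stood apart from the control when RBFOX2 isoforms were targeted. The claudins were lower in most G libraries, CTNNA1 was higher in all 6, and the cadherin, EPCAM and the other catenins lay on both sides of the control. Levels are TPM, here reads scaled to a common library total with no term for transcript length, so they compare libraries within a gene. Ratios are log2 of (TPM + 0.5) over the same in the control. In bulk samples, fewer cells of a type and less RNA per cell cannot be told apart.

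**Figure D1:**
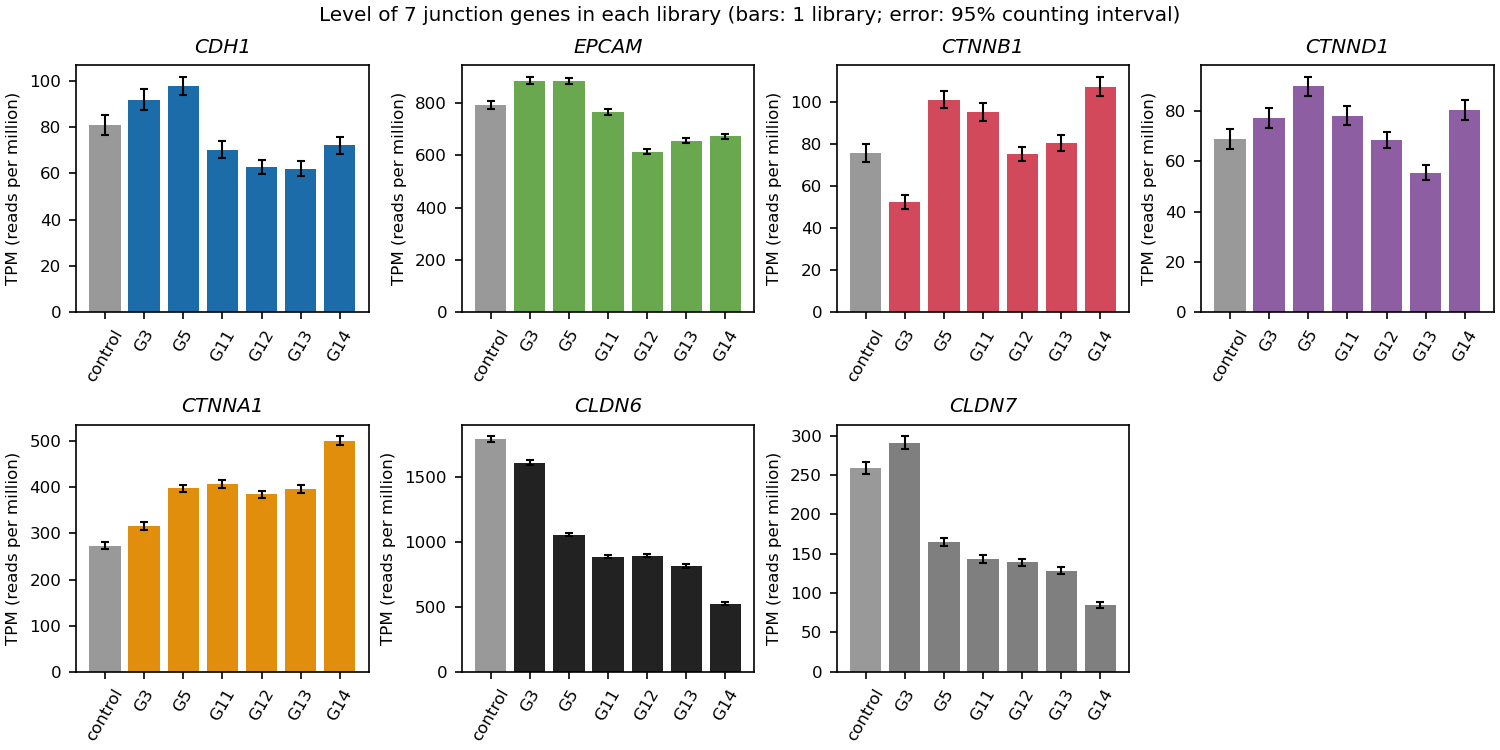
Level of each junction gene (TPM) in the control, in grey, and the 6 G libraries, with 1 panel per gene, 1 bar per library and the 95% counting interval. CLDN6 was highest in the control at 1796 TPM and lowest in G14 at 525 TPM, whereas CTNNA1 was lowest in the control at 274 TPM and highest in G14 at 501 TPM.

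CDH1, or E-cadherin, is the transmembrane receptor of epithelial adherens junctions (chromosome 16, plus strand, 68737225 to 68835548). Its level was 80.8 TPM in the control, 91.8 (G3), 97.7 (G5), 70.1 (G11), 62.6 (G12), 61.9 (G13) and 72.1 (G14). G3 and G5 lay above the control and the other 4 below it, and the highest level was 1.58 times the lowest. Relative to the control, CDH1 stood at 121% in G5 (113 to 129) and 76.6% in G13 (71.1 to 82.6). In the order of levels, the neighbours G5 and G3, G14 and G11, and G12 and G13 did not differ beyond counting error.

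EPCAM is a homophilic adhesion molecule of epithelial and pluripotent cells that also binds claudins (chromosome 2, plus strand, 47345158 to 47387601). It was measured at 793 TPM in the control, 886 (G3), 883 (G5), 766 (G11), 614 (G12), 657 (G13) and 673 (G14). The same libraries as for CDH1 lay above and below the control. The lowest ratio was 77.4% of the control in G12 (75.6 to 79.2) and the highest 112% in G3 (109 to 114). G3 and G5 were the neighbours that did not differ beyond counting error.

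CTNNB1, or beta-catenin, binds the cadherin tail and is also the transcriptional effector of Wnt signalling (chromosome 3, plus strand, 41194741 to 41260096). It read 75.8 TPM in the control, 52.5 (G3), 101 (G5), 95.3 (G11), 75.5 (G12), 80.5 (G13) and 108 (G14). G3 alone lay clearly below the control, at 69.3% (63.6 to 75.4), and G14 was highest at 142% (132 to 152). The control did not differ from G13 or from G12 beyond counting error. In G3, 13.5% of all genes compared had a lower ratio than CTNNB1.

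CTNND1, or p120-catenin, binds the juxtamembrane part of cadherins and keeps them at the surface. Its level was 68.9 TPM in the control, 77.1 (G3), 89.6 (G5), 78.0 (G11), 68.3 (G12), 55.5 (G13) and 80.3 (G14). G5 was highest at 130% of the control (121 to 140) and G13 lowest at 80.6% (74.4 to 87.4). The control and G12 did not differ beyond counting error, nor did G14 from G11 or G11 from G3.

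CTNNA1, or alpha-catenin, links the cadherin and beta-catenin complex to actin (chromosome 5, plus strand, 138610967 to 138935034). Its level was 274 TPM in the control, 316 (G3), 398 (G5), 406 (G11), 385 (G12), 396 (G13) and 501 (G14). The control was the lowest of the 7 libraries. Relative to it, CTNNA1 stood at 115% in G3 (111 to 120) and 183% in G14 (177 to 190), with the other 4 between 140% and 148%. Of all genes compared, 21.1% were higher in all 6 G libraries. In G5, G11, G12, G13 and G14, between 91.5% and 94.2% of all genes had a lower ratio than CTNNA1, against 60.01% in G3.

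The balance between the catenins and CDH1 was read from ratios of reads, which do not depend on the library total. Against the control, the ratio of CTNNA1 to CDH1 reads was 1.01 times in G3 (0.934 to 1.10), 1.20 times (G5), 1.71 (G11), 1.81 (G12), 1.89 (G13) and 2.05 in G14 (1.89 to 2.22). The interval included 1 in G3 and lay above it in the others. For CTNNB1 to CDH1 the same ratio was 0.609 times in G3 (0.545 to 0.681) and between 1.10 and 1.59 times in the other 5. For CTNND1 to CDH1 it ran from 0.985 times in G3 to 1.31 in G14. The interval of this last ratio included 1 in G3, G5 and G13 and lay above it in G11, G12 and G14.

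CLDN6 is a claudin of early embryonic epithelia and pluripotent cells (chromosome 16, minus strand, 3014712 to 3020071). It was measured at 1796 TPM in the control, 1612 (G3), 1058 (G5), 888 (G11), 894 (G12), 815 (G13) and 525 (G14). The control was the highest of the 7 libraries, and G11 and G12 did not differ from each other beyond counting error. CLDN6 stood at 89.8% of the control in G3 (88.3 to 91.2) and at 29.3% in G14 (28.6 to 29.9). Of all genes compared, 20.5% were lower in all 6 G libraries.

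CLDN7 is a claudin of many epithelia that is known to associate with EPCAM (chromosome 17, minus strand, 7259903 to 7263983). Its level was 259 TPM in the control, 291 (G3), 165 (G5), 143 (G11), 139 (G12), 128 (G13) and 84.8 (G14). G3 lay above the control, at 112% (108 to 117), and the other 5 below it, down to 32.8% in G14 (31.0 to 34.6). The number of CLDN6 reads per CLDN7 read was 6.94 in the control and 5.54 to 6.45 in the G libraries. Against the control this ratio was 0.798 times in G3 (0.764 to 0.834) and 0.893 to 0.929 times in the other 5, while the highest level of CLDN6 was 3.42 times its lowest and that of CLDN7 3.43 times.

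Of 42 ratios, 7 genes in 6 libraries, 6 were at least 2-fold lower than the control: CLDN6 in G11, G12, G13 and G14, and CLDN7 in G13 and G14. Over all genes, 11.3% of ratios were as low. By library this background was 5.14% (G3), 10.1% (G5), 10.4% (G11), 8.79% (G12), 14.6% (G13) and 18.9% (G14). None of the 42 was at least 2-fold higher, against 1.45% over all genes, and 1.89% of genes in G3, 0.533% (G5), 0.724% (G11), 0.546% (G12), 1.04% (G13) and 3.97% (G14). The share of members, 6 of 42, is thus near the background. The members' median ratio was 0.16 (G3), 0.27 (G5), -0.05 (G11), -0.37 (G12), -0.31 (G13) and -0.16 (G14), and over all genes it was 0.12, 0.14, -0.04, -0.16, -0.21 and -0.10 in the same order.

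**Figure D2:**
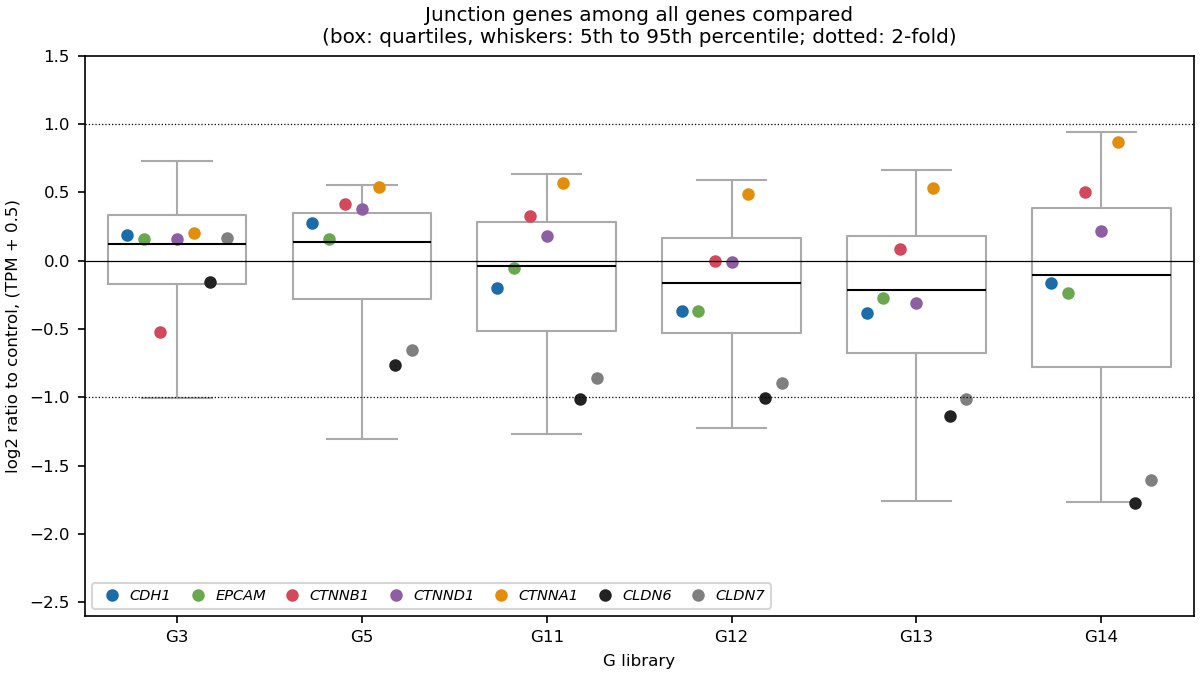
Log2 ratio to the control of the 7 junction genes (coloured points) in each G library, over the distribution of the 7877 genes compared (box: quartiles, whiskers: 5th to 95th percentile, dotted lines: 2-fold). CLDN6 and CLDN7 lay below the box in G5, G11, G12, G13 and G14, and CTNNA1 lay above it in the same 5 libraries.

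Transcript length moved with the ratios over all genes, and GC content was not set against them alone. Among genes of the shortest quintile by length, 207 to 1615 nt, the median ratio was -0.53 (G3), -0.84 (G5), -0.72 (G11), -0.38 (G12), -0.42 (G13) and -1.01 (G14). In the longer quintiles it lay between -0.20 and 0.27. CLDN6, at 1368 nt and 57.7% GC, and CLDN7, at 1521 nt and 56.1% GC, were the 2 members in the shortest quintile, and EPCAM had 1724 nt and the other 4 members at least 3444. A surface of length and GC content was then removed. It includes a constant for each library, so its removal also recentred the libraries, and the 2 effects were not separated. With it removed, CLDN6 was 0.13 (G3), -0.24 (G5), -0.54 (G11), -0.65 (G12), -0.73 (G13) and -1.07 (G14) on the log2 scale. CLDN7 was 0.36, -0.28, -0.50, -0.62, -0.68 and -1.07 in the same order. Both thus remained lower than the control in 5 libraries, at a smaller size, and 2 of the 42 ratios were at least 2-fold lower, both in G14, against 3.52% of all. CTNNA1 stayed higher in 5 libraries, at 0.27 to 0.71, and was -0.04 in G3, while CDH1 turned lower in G3 and G5 and so lay below the control in all 6, at -0.25 to -0.01.

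**Figure D3:**
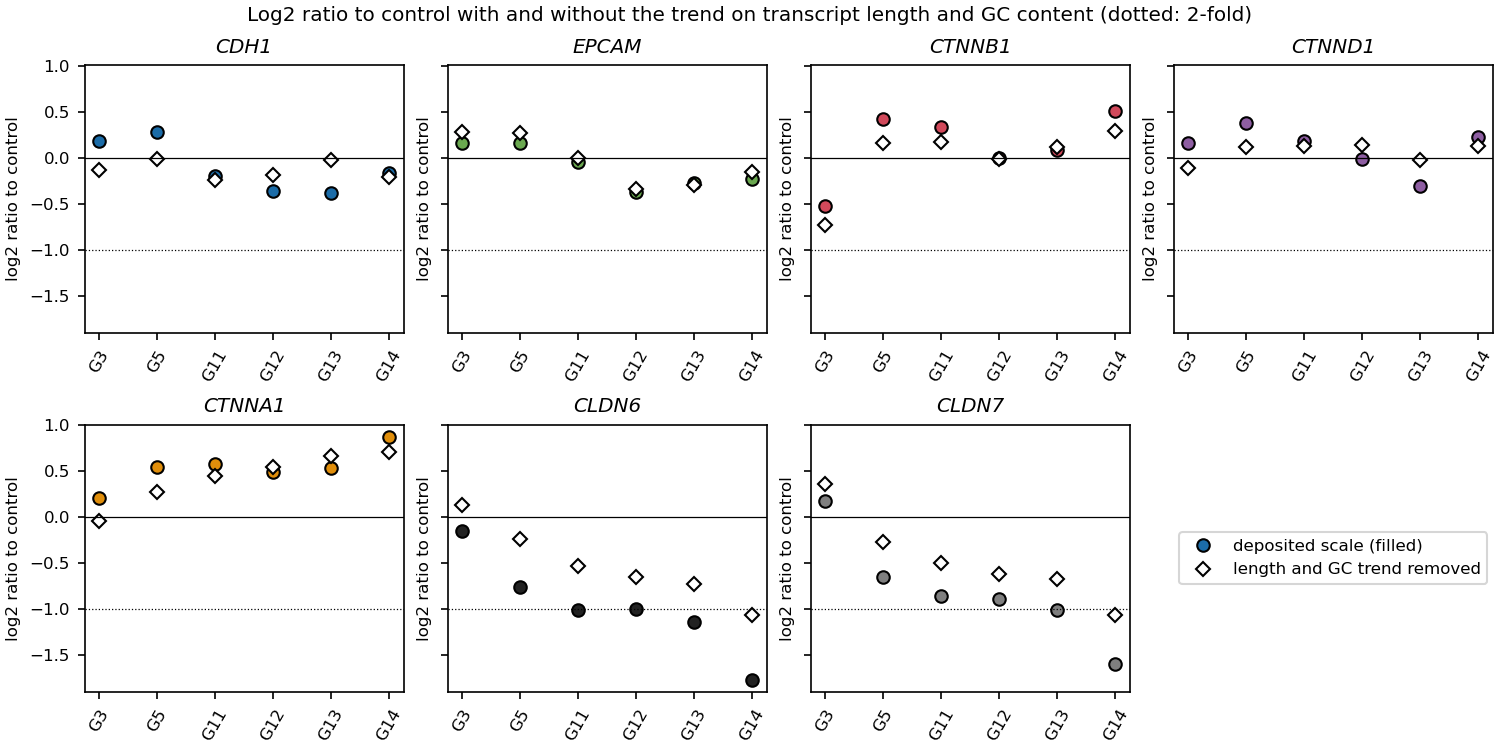
Log2 ratio to the control of each junction gene in the 6 G libraries, on the deposited scale (filled circles) and after removal of the trend on transcript length and GC content (open diamonds). The removed trend includes a constant for each library. CLDN6 in G14 was -1.77 on the deposited scale and -1.07 after removal, and CTNNA1 in G14 was 0.87 and 0.71.

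Isoform shares were compared next, since the targeted gene regulates splicing. EPCAM, CLDN6, CTNNA1, CDH1 and CLDN7 were each read mostly as 1 isoform, whereas CTNNB1 and CTNND1 were divided among several. The leading isoform held a mean of 98.8% of the reads of EPCAM, 99.2% of CLDN6, 89.96% of CTNNA1, 87.8% of CLDN7 and 87.2% of CDH1. The usage distance, which is 0 when all shares are equal and 1 when none is shared, reached 0.1 in 8 of 42 values: CTNND1 in all 6 G libraries, at 0.116 to 0.142, and CDH1 in G13 and G14, at 0.126 and 0.1002. Over all genes 35.4% of values were as high, with 32.5% (G3), 31.8% (G5), 34.5% (G11), 34.9% (G12), 38.8% (G13) and 40.2% (G14), so the members' share is below the background. The count depended on the isoforms kept. It was 1 with isoforms of at least 1 TPM only and 0 with isoforms carrying a reference ID only, against 10.98% and 7.68% of all. CDH1 has 1 isoform with a reference ID, so its distance in that last setting was fixed at 0.

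CTNND1 was read as 136 isoforms, of which 4 held at least 5% on average. By start codon among the reference isoforms, the form from the third codon held 59.8% in the control (56.4 to 63.1), 64.9% (G3), 60.3% (G5), 62.4% (G11), 60.6% (G12), 65.2% (G13) and 65.4% in G14 (62.8 to 68.0). This short form is the one known from epithelial cells. The longest form, from the first codon and known from mesenchymal cells, held 26.9% in the control (24.0 to 30.0), 23.9% (G3), 25.2% (G5), 24.5% (G11), 26.5% (G12), 23.1% (G13) and 21.7% in G14 (19.6 to 24.0). The short form was thus the larger part in every library, and the control had the largest share of the longest. For both forms the control's interval overlapped that of every G library. The reference isoforms so counted held 72.0% of CTNND1 reads in the control and 76.9% (G11) to 80.1% (G13) in the G libraries, so the base of these shares differed. Exon 4, printed above, was in 80.3% to 83.3% of the reads of reference coding isoforms with at least 14 exons, and in 80.9% in the control.

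CTNNB1 was read as 3 main isoforms that encode the same 781 residues and differ in splicing within the last exon, which begins at 41239134. ENST00000396183.7 held a mean of 35.2%, ENST00000349496.11 22.6% and ENST00000396185.8 21.7%. Among reference isoforms, the form without that intron removed held 29.5% in the control (26.9 to 32.1), 25.3% (G3), 28.6% (G5), 27.6% (G11), 27.9% (G12), 26.4% (G13) and 26.7% (G14). The control had the largest share, and its interval overlapped those of all 6. The form spliced to the first acceptor, 41239660, held 24.8% in the control (22.4 to 27.3) and 29.9% in G3 (26.9 to 33.0), and that spliced to the second, 41239819, held 40.9% in the control and 44.1% in G14 (41.9 to 46.2).

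CLDN7 was read as ENST00000360325.11 and, for a mean of 7.12%, as the 5-exon isoform ENST00000397317.8, which has a further upstream first exon in GENCODE 29 and encodes the same 211 residues. The latter held 5.91% in the control, 3.93% (G3), 5.85% (G5), 7.36% (G11), 8.70% (G12), 9.44% (G13) and 8.67% (G14). It was lowest in G3 and highest in G13. The table lists the 5′ ends of the pair within 10 bases of each other, unlike the annotation, so the share describes how reads were assigned.

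**Figure D4:**
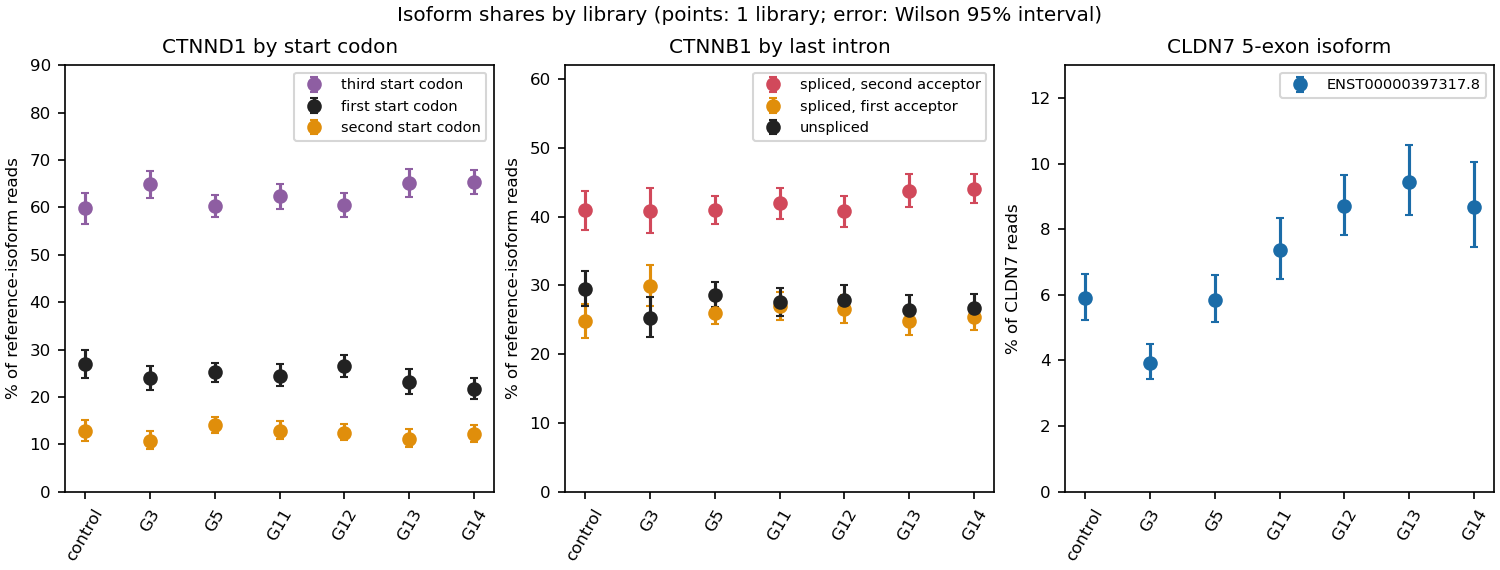
Share of reads by form in each of the 7 libraries, with 1 point per library and the Wilson 95% interval: CTNND1 by start codon, CTNNB1 by splicing within the last exon, both in % of reads of reference isoforms, and the 5-exon isoform of CLDN7 in % of CLDN7 reads. The third-codon form of CTNND1 lay between 59.8% and 65.4%, and the CLDN7 isoform between 3.93% in G3 and 9.44% in G13.

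CDH1 reads beginning inside the gene were more frequent in 4 G libraries. An isoform was counted so if it began more than 1000 bases inside the 5′ end of the gene's leading isoform, a measure chosen after the isoform shares had been seen. For CDH1 the share was 5.31% in the control (4.23 to 6.63), 5.13% (G3), 6.28% (G5), 10.3% (G11), 12.1% (G12), 17.7% in G13 (15.8 to 19.8) and 15.2% (G14). The intervals of G11, G12, G13 and G14 lay above that of the control. For CTNNB1 it was 4.63% in the control and 10.2% in G13, and for CTNNA1 3.98% and 6.86%, while CTNND1 stayed between 1.05% and 1.76%. EPCAM, CLDN6 and CLDN7 had no such isoform.

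Most of these CDH1 reads belonged to 1 isoform that began at 68823399, the first base of exon 13 of 16 in ENST00000261769. It had 58 reads in the control, 63 (G3), 128 (G5), 120 (G11), 151 (G12), 201 (G13) and 187 (G14). The mean share over all genes was also higher in these libraries, at 2.53% in the control and 2.93% (G11), 3.33% (G12), 3.84% (G13) and 3.43% (G14), and was 1.98% (G3) and 2.28% (G5). A rise of at least 2 points was seen in 16.8% of all genes in G13, 14.5% (G14), 13% (G12), 9.42% (G11), 2.51% (G5) and 1.31% (G3). The labels give RNA integrity numbers of 8.7 to 9.7 over the samples, not per library, and the part of RNA or cDNA completeness in the CDH1 values was not tested.

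**Figure D5:**
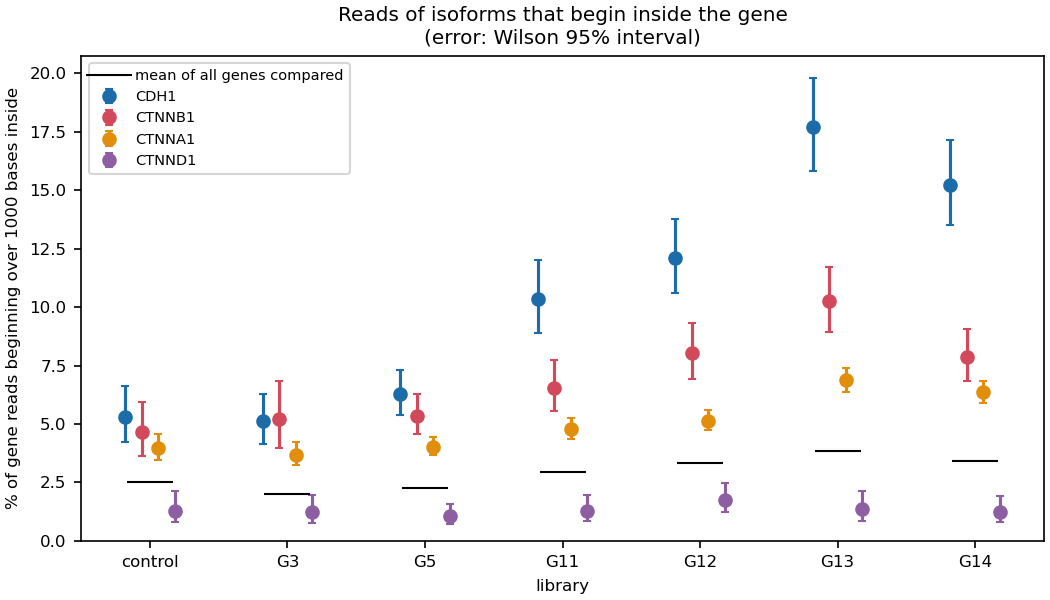
Percent of a gene's reads from isoforms that begin over 1000 bases inside the gene, for CDH1, CTNNB1, CTNNA1 and CTNND1 in each library, with Wilson 95% intervals; black bars give the mean of all genes compared. CDH1 was at 5.31% in the control and 17.7% in G13, and CTNND1 stayed at or below 1.76%.

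Other genes of the junctions were read from lists. Of 12 further adherens junction genes 7 passed the filter, with a median ratio of 0.14 (G3), 0.17 (G5), 0.09 (G11), -0.07 (G12), -0.06 (G13) and 0.11 (G14). JUP, or plakoglobin, the relative of beta-catenin shared by adherens junctions and desmosomes, was 81.7 TPM in the control, 127 (G3), 92.3 (G5), 39.8 (G11), 24.0 (G12), 8.99 (G13) and 17.4 (G14). It was at least 2-fold lower in 4 libraries and higher in G3 and G5. Over all genes, 7.62% were at least 2-fold lower in 4 or more libraries and 0.495% at least 2-fold higher. NECTIN1 and ARVCF, below the filter and so outside these shares, were also at least 2-fold lower in 4. CDH3, or P-cadherin, was higher in all 6, from 138 TPM in the control to 221 in G14, and NECTIN2, an immunoglobulin-like adhesion receptor, ran from 595 TPM in G13 to 1050 in G3 around a control of 800. VCL, or vinculin, which binds alpha-catenin under tension, was 42.0 TPM in the control, 46.2 in G3, 43.5 in G5 and lower in the other 4, down to 14.4 in G13.

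Of 18 tight junction and polarity genes 12 passed, with median ratios between -0.20 in G13 and 0.24 in G5, and none was at least 2-fold from the control in 4 libraries. F11R, the junctional adhesion molecule A, lay between 433 and 609 TPM, with 462 in the control. CLDN10 was lower in all 6, at 171 TPM in the control and 93.1 in G5, and PRKCI, an atypical protein kinase C of the polarity complex, was higher in all 6, at 150 and up to 230 in G14. CLDN3 and CLDN4 had no row. Of 7 desmosome genes 5 passed, and DSG2, DSC2 and PKP2, a desmosomal cadherin pair and a plakophilin, were higher in all 6, as were 21.1% of all genes. DSG2 was 40.8 TPM in the control and up to 60.3 in G14. PKP3 was 24.0 TPM in the control, 34.9 (G3), 28.1 (G5) and lower in the other 4, down to 5.13 (G13), and PERP, at 6.67 in the control, was likewise higher in G3 and G5 and lower in the other 4.

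Of 4 partners of EPCAM 2 passed. SPINT2, a membrane protease inhibitor, was lower in all 6, from 736 TPM in the control to 450 in G14, and its relative SPINT1 ran from 54.7 in G13 to 96.6 in G5 around 80.5. Of 7 genes of the beta-catenin destruction complex 4 passed. CSNK1A1, the priming kinase, was higher in all 6, from 344 TPM to 604 in G14, and GSK3B was 45.6 in the control, 52.4 in G3 and lower than the control in the other 5, down to 27.5 in G12. Of 12 partners and targets of beta-catenin 2 passed, TCF7L2, at 9.87 to 13.99 TPM, and PYGO2, at 27.6 in the control, 42.6 in G3, 32.0 in G5 and lower in the other 4, down to 6.05 in G13. Below the filter, and so outside the shares over all genes, BCL9 was at least 2-fold lower in 4 libraries and TCF7L1 in 6. TCF7L1 was at 0.774 TPM in the control. Of 8 mesenchymal genes 2 passed: VIM, at 68.9 TPM in the control, 73.1 (G3), 71.0 (G13) and lower in the other 4, down to 41.5 (G14), and SNAI1, a repressor of CDH1, at 12.2 in the control, 11.2 (G3), 9.04 (G5), 5.47 (G11), 4.54 (G12), 3.86 (G13) and 3.91 (G14). SNAI1 was highest in the control and at least 2-fold lower in 4 libraries, against 7.62% of all genes so in 4 or more. ZEB1 and ZEB2, further repressors of CDH1, were at or below 0.614 TPM, and CDH2 was at 4.48 to 6.29. SNAI2, also of the Snail family and below the filter, went the other way from SNAI1. It was 0.655 TPM in the control and higher in all 6, at 0.768 to 1.40. FN1, below the filter at 3.27 TPM in the control, was lower in all 6.

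The genes with the profiles most like the members' were found among 6611 genes of at least 10 TPM, as the smallest distance between centred log2 profiles over the 7 libraries. For CDH1 they were WDFY1 and PAK2, for EPCAM C6orf89 and TPST2, and for CTNNB1 ERRFI1 and GNL2. WDR44 was among those of CTNND1. For CTNNA1 they were NAMPT and GSKIP, at distances of 0.0482 and 0.0546. For CLDN6 they were SRSF7 and SNAPC2, at 0.147 and 0.164, and for CLDN7 EIF1 and KRT19, at 0.145 and 0.198. KRT19, a keratin of simple epithelia, was 249 TPM in the control, 250 (G3), 156 (G5), 121 (G11), 133 (G12), 115 (G13) and 72.7 (G14). At 1390 nt and 61.8% GC it falls in the shortest quintile by length, as CLDN6 and CLDN7 do. EIF1, at 2330 nt and nearer to CLDN7 in profile, was 376 TPM in the control, 463 (G3), 247 (G5), 204 (G11), 205 (G12), 180 (G13) and 124 (G14).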

How the data were processed

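Per the labels' protocols, the authors concatenated cDNAs 8 at a time before sequencing and split them afterwards. Per the file headers, the deposited values are a count of full-length reads and a TPM for each isoform in each library; minimap2 2.17 and GRCh38 are named in the submitters' processing notes, with no role, and the isoform caller, annotation and strand setting are not given in the sources used here. The deposited TPM equalled count over library total, without a length term. Every isoform had at least 1 control read, so isoforms seen only in G libraries are absent from these values. Library totals were inferred here from the counts and TPM of abundant isoforms. By these totals the listed isoforms held 16801842 of 16801847 control reads, a gap that may be rounding. They held 98.1% to 98.6% of the reads of the G libraries. Gene sums and shares thus keep rare isoforms of the control and leave out those of the G libraries alone. The size of this effect on the ratios and usage distances was not tested. Rows without a gene ID (0.106% to 0.191% of listed reads) stayed out of gene sums. No column went unmapped.

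Isoforms were summed per gene with Python 3.11.15, pandas 2.3.3, numpy 2.4.6 and scipy 1.17.1. Ratios used a pseudocount of 0.5 TPM and genes with a mean of at least 5 TPM, and usage distances the 7823 genes with several isoforms. Intervals of levels and of ratios to the control are exact, and those of shares Wilson. Those of read ratios between 2 genes use a normal approximation on the log scale. Length and GC content came from GENCODE 29, for 98.2% of genes. The ratio script was tested on simulated counts. Opposite-strand genes overlap CDH1 (AC099314.1), CTNNB1 (ULK4), CTNNA1 (LRRTM2, AC034243.1), CLDN6 (TNFRSF12A) and CLDN7 (ELP5). TMX2-CTNND1 reads through into CTNND1, and the same-strand coding genes AP001931.1 and AC003688.1 overlap CTNND1 and CLDN7. The same-strand pseudogene FTLP14 lies within CDH1 at 68822587 to 68823070, and CTNNA1 has a pseudogene. Counts of these members are uncertain to that extent.

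Members and lists were chosen with earlier results of these data known. Named were the members, their isoforms of at least 5%, list genes at least 2-fold from the control one way in 4 of 6 libraries or among the most abundant of their list, and the 2 genes nearest each member in profile. 1 of these genes is not reported here. Other list genes named, among them VCL, DSG2, DSC2, PKP2, PERP, SALL4, TDGF1, ZEB1, ZEB2, SNAI2, FN1 and CDH2, and the values of KRT19 and EIF1, were chosen after their values were seen. Alternatives were other pseudocounts, no filter, median-of-ratios scaling, reference-ID or abundant isoforms only, joined IDs left out, length and GC content removed, the other 6 libraries as reference and each G library left out.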

Additional observations from a re-analysis of the deposited data

How the results depend on the processing

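A member had between 937 and 30182 reads in a library, which sets the width of its interval, and the single control enters every ratio. Of 180 values under other settings, 158 stayed within their limits, 22 moved and 0 changed sign past 2-fold. Part of this was fixed in advance. Every member passed the filter and none had a joined ID, so dropping the filter or joined IDs changed no member value. For a gene's median over libraries the limit was its standard deviation between the G libraries. Change of sign was scored only for such medians at least 2-fold from the control, which was CLDN6 alone. These counts thus do not measure how stable the results are. The count of 6 ratios at least 2-fold lower was 2 with median-of-ratios scaling, 2 with length and GC content removed, and 0 with the median of the other 6 libraries as reference, where 1 was at least 2-fold higher (CLDN7 in G3). Median-of-ratios scaling shifted the median of all genes by 0.13 in G12, 0.16 in G13 and 0.11 in G14, and turned the G12 ratios of CTNNB1 and CTNND1 to 0.13 and 0.12. The members' median became -0.0035 (G11), -0.23 (G12), -0.15 (G13) and -0.049 (G14) under that scaling; -0.042 (G3), 0.11 (G5), -0.00063 (G11), -0.19 (G12) and -0.025 (G13) with length and GC content removed; and 0.30 in G3, 0.058 in G11 and -0.18 in G12 against the other 6 libraries. That last reference, chosen after seeing the data for the medians over libraries, gave 0.023 for CTNNA1, -0.12 for CLDN6 and -0.11 for CLDN7. With each G library left out, the median over libraries was -0.20 to -0.16 for CDH1, -0.24 to -0.05 for EPCAM, 0.09 to 0.33 for CTNNB1, 0.16 to 0.18 for CTNND1, 0.53 to 0.54 for CTNNA1, -1.02 to -1.01 for CLDN6 and -0.90 to -0.86 for CLDN7, and the count was 4 to 6, lowest without G13 or G14. The usage count of 8 was 1 with isoforms of at least 1 TPM, 0 with reference IDs only and 2 with isoforms pooled within 50 bases. Fewer isoforms enter those settings, and with reference IDs only the distance of CDH1, which has 1 such isoform, was fixed at 0. For the other changes the cause was not tested. At 500 bases inside, 7 of 28 shares of reads moved past their interval, and at 5000 bases none did. No paired analysis was possible because each group has 1 library and the result comes from no test.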
